A study of Mus musculus with 3 samples.

Results

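The complement, Fc and Fc-like receptors of B cells and some of their partners were followed in 3 mouse cell types, embryonic stem (ES) cells, B cells from the spleen and CD4 T cells from the spleen. The 7 genes were Cr2, Fcer2a, Fcmr, Fcrla, Fcgr2b, Bank1 and Vpreb3, and every probe set annotated to 1 of these symbols and no other was taken, which gave 14 of the 45037 probe sets and 7 of the 18193 genes with a probe set of their own. All 3 populations were of the C57BL/6 strain and each was measured on 1 array. The ES cells, line B6N-22, were grown with leukemia inhibitory factor on a feeder layer of mouse embryonic fibroblasts made unable to divide with mitomycin C. The lymphocytes were taken from spleens of mice 6 to 8 weeks old and enriched with magnetic beads, for B220 or for CD4, to a purity stated as above 98%. No genotype, gene targeting or drug treatment is named for any of the populations, and how many mice gave each lymphocyte sample was not stated in the labels.

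B cells read the antibodies and complement fragments bound to an antigen as well as the antigen itself. Complement receptor 2 sits in a coreceptor that holds CD81 and lowers the threshold of the B cell receptor for antigen coated with complement, whereas the inhibitory IgG receptor dampens the same signal when antigen is already covered by IgG. Receptors for IgE and IgM are carried on mature B cells of the spleen, and further Fc-like and immunoglobulin-binding proteins act inside the cell, where immunoglobulin chains are made and folded.

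Promoter sequences were looked at because all 7 genes had the same order of signals over the 3 arrays, and those of 5 are shown. They run from 250 bases before to 50 bases after a RefSeq transcript start, 5′ to 3′ on the gene's strand, in build GRCm38.p6. The table held 9 such windows for the 7 genes, with 3 starts for Fcer2a and 1 for each other gene. Capitals mark CAGGTG or its reverse complement CACCTG, an E-box of the kind bound by E proteins such as E2A, the octamer ATGCAAAT in either direction, which Oct factors bind, and TATAAA. Each window shown has CAGGTG or the octamer, so the display does not stand for all 9. Not shown are Fcgr2b, with none of the marked motifs, Bank1, with CAGGTG and TATAAA, and the other starts of Fcer2a, which lack CAGGTG.
Cr2, chr1:195176670-195176969, minus strand: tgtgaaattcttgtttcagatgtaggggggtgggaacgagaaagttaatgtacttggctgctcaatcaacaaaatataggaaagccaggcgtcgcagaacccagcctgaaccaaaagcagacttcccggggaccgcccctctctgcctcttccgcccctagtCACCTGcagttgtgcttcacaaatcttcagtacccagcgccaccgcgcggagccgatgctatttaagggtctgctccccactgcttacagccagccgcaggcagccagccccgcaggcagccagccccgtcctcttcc
Fcer2a, chr8:3690812-3691111, minus strand: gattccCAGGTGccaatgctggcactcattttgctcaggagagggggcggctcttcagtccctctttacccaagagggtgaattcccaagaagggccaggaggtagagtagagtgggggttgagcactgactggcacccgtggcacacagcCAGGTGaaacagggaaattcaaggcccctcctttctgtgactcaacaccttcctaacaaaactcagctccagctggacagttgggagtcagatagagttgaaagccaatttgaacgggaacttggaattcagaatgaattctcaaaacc
Fcmr, chr1:130865527-130865826, plus strand: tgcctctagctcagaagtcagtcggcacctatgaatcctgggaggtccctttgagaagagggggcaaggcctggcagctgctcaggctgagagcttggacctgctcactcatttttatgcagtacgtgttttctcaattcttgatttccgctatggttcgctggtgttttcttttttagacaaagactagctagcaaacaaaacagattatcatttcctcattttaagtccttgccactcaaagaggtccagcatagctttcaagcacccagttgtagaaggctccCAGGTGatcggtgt
Fcrla, chr1:170927534-170927833, minus strand: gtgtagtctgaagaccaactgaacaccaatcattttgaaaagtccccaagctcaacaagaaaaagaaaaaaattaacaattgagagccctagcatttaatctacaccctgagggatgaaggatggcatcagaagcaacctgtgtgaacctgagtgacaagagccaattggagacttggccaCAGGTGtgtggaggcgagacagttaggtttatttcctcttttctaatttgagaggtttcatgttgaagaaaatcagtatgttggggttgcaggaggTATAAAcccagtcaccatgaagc
Vpreb3, chr10:75948050-75948349, plus strand: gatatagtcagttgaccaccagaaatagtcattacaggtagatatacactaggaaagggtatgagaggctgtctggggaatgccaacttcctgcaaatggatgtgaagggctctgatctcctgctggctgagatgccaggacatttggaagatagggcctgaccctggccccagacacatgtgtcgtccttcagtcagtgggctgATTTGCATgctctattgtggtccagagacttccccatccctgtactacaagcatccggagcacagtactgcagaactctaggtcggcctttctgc

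CAGGTG was found, on either strand, in 5 of the 9 windows, 1 each for Cr2, Fcer2a, Fcmr, Fcrla and Bank1, and in 20.2% of all 32851 promoter windows of that length. The octamer was found in 1 window, that of Vpreb3, where it began 45 bases before the start, and in 1.74% of all windows. TATAAA was found in 3 windows, those of Fcrla, Bank1 and another start of Fcer2a, and in 13.6% of all windows. CCCNNGGG, the core of the EBF1 site, was in 1 window, that of Bank1, and in 13.7% of all windows, and GAGGAAGT, a form of the PU.1 site, was in none of the 9 and in 3.20% of all. CANNTG, the general E-box that also covers CAGGTG, was in all 9 windows and in 72.3% of all. These matches describe letters in the windows only.

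The values are deposited signals on a linear intensity scale. A detection level was set at the 50th percentile of all deposited values, a signal of 95.0, and values under it were set to that level before any difference was computed. A fold against an array below the level is therefore a lower bound, written "at least". A gene was counted as different where the brighter array was above the level and the fold was 4 or more, which is 2 in log2. Where a gene had several probe sets, the one with the highest mean signal over the arrays gave the gene value. A single array per population leaves no replicate error, and no test was run. In samples of many cells fewer cells of a type and less RNA per cell cannot be told apart.

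The arrays carried the markers of their labels. All 7 analysed B cell markers were above the level on the B cell array, at 584.3 to 32919, and all 9 analysed T cell markers on the T cell array, at 834.2 to 17144. The 10 ES cell markers ranged from 1490 to 46811 on the ES cell array. The 10 fibroblast markers were also above the level there, at 518.8 to 16854, and the ES cells had been grown on fibroblasts. The part of feeder RNA in the ES cell values was not tested, and of the 7 gene values Fcer2a was the one above the detection level in ES cells, at 109.1.

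All 7 genes were brightest on the B cell array. In B cells against ES cells, 7 of 7 were at least 4-fold higher, where 9.85% of the 12463 measured genes were, and 0 were at least 4-fold lower, where 10.3% of the measured genes were. Their median log2 difference was 6.58, with every gene but Fcer2a at a bound, against -0.07 over all measured genes. In T cells against B cells, 7 of 7 were at least 4-fold lower, and 0 higher, where 1.85% of 11194 measured genes were lower and 2.49% higher, with a median of -4.60 against -0.05. In B cells against both other arrays at once, 7 of 7 were at least 4-fold higher, where 1.31% of 12776 measured genes were. The genes were picked as B cell genes with earlier results of these arrays known, so their direction is not independent evidence.

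**Figure D1:**
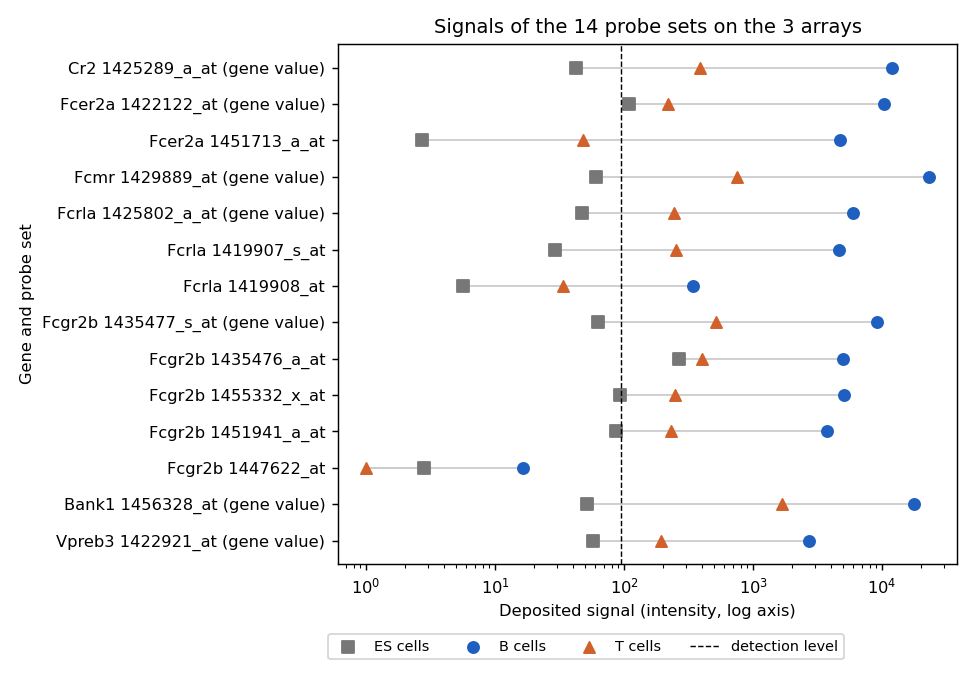
Deposited signal (intensity, log axis) of each of the 14 probe sets on the ES cell (grey squares), B cell (blue circles) and T cell (orange triangles) arrays, with the detection level of 95.0 as a dashed line and the probe set that gives the gene value marked. In 13 of the 14 probe sets the B cell signal is above the level and highest, followed by T cells and then ES cells, and the remaining probe set, for Fcgr2b, is below the level on all 3 arrays.

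Cr2 encodes complement receptor 2, or CD21, which binds fragments of C3, and in the mouse the same gene also gives complement receptor 1, or CD35, by alternative splicing. Its 1 probe set gave signals of 42.3 (ES cells), 12032 (B cells) and 384.3 (T cells). The B cell array was far above the others and the ES cell array was below the detection level. Cr2 was at least 127-fold brighter on the B cell array than on the ES cell array, and it was 31.3-fold dimmer on the T cell array than on the B cell array, rank 7 from the lowest among the 9644 genes above the level on both arrays. Against ES cells the T cell signal was at least 4.05-fold higher, just past the 4-fold threshold, and this fell to 1.86 on the log2 scale with quantile normalization.

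Fcer2a encodes CD23, the low-affinity receptor for IgE, a C-type lectin of mature follicular B cells. Its brighter probe set gave 109.1 (ES cells), 10414 (B cells) and 218.6 (T cells), all above the detection level. Its other probe set gave 2.7, 4675 and 48.0 in the same order, and there only the B cell array was above the level. The fold between B cells and T cells was 47.6 by the first and at least 49.2 by the second, where the T cell signal was under the level. By the first, Fcer2a had the 2nd lowest difference of those 9644 genes in T cells against B cells. B cells were 95.5-fold above ES cells and T cells 2.00-fold above ES cells by the brighter probe set.

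Fcmr encodes the Fc receptor for IgM. It gave 60.2 (ES cells), 23211 (B cells) and 755.9 (T cells) by its 1 probe set. The ES cell array was below the level, and B cells were at least 244-fold above it. It was 30.7-fold dimmer on the T cell array than on the B cell array, and at least 7.96-fold brighter on the T cell array than on the ES cell array.

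Fcgr2b encodes the inhibitory receptor for IgG, which carries an inhibitory tyrosine motif in its tail and recruits the phosphatase SHIP-1, the product of Inpp5d. It had 5 probe sets. The brightest, 1435477_s_at, gave 62.7 (ES cells), 9062 (B cells) and 511.6 (T cells). The next 3 gave 3744 to 5043 in B cells, 230.1 to 402.5 in T cells and 86.5 to 267.7 in ES cells. All 4 had the order B cells, T cells, ES cells. The fifth, 1447622_at, gave 2.8, 16.6 and 1.0 and was below the detection level on every array, so it carries no difference.

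The log2 difference between T cells and B cells lay between -4.34 and -3.64 over the 4 measured probe sets of Fcgr2b, and the gene value was 17.7-fold lower in T cells. The difference between B cells and ES cells was less even, from 4.22 by 1435476_a_at, which had 267.7 in ES cells, to at least 6.58 by the brightest. Likewise T cells were at least 5.39-fold above ES cells by the brightest probe set but 1.5-fold by 1435476_a_at. Probe set names ending in _s_at or _x_at mark, in the maker's naming, probes that can match more than 1 transcript or gene. Without such probe sets Fcgr2b was still 12.4-fold dimmer on the T cell array than on the B cell array.

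Fcrla encodes a soluble Fc receptor-like protein that stays inside B cells and, in human cells, binds immunoglobulin in the endoplasmic reticulum. Its brightest probe set gave 47.3 (ES cells), 5963 (B cells) and 245.1 (T cells), and a second gave 29.4, 4643 and 252.7. These gave T cells 24.3-fold and 18.4-fold lower than B cells. The dimmest, 1419908_at, gave 5.6, 341.6 and 33.5 and reached the level in B cells only. It gave a bound of at least 3.60-fold in both comparisons that involve B cells, which cannot show whether 4-fold was reached, and Fcrla was counted by 2 of its 3 probe sets.

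Vpreb3 encodes a protein related to the surrogate light chain that associates with newly made immunoglobulin heavy chains in early B cells. Its 1 probe set gave 57.0 (ES cells), 2696 (B cells) and 193.9 (T cells). It was at least 28.4-fold brighter on the B cell array than on the ES cell array, where the ES cell array was below the level. It was 13.9-fold dimmer on the T cell array than on the B cell array and at least 2.04-fold brighter on the T cell array than on the ES cell array.

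Bank1 encodes a scaffold protein with ankyrin repeats that is phosphorylated after B cell receptor stimulation and, in human cells, binds the kinase Lyn. Its 1 probe set gave 51.6 (ES cells), 17653 (B cells) and 1682 (T cells). The T cell signal was well above the detection level and Bank1 was at least 17.7-fold brighter on the T cell array than on the ES cell array. Of the 7 genes Bank1 had the smallest difference between T cells and B cells, at 10.5-fold by the gene values, rank 50 from the lowest of 9644.

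Thus 4 of the 7 genes, Cr2, Fcmr, Fcgr2b and Bank1, passed 4-fold upwards between ES cells and T cells, and 0 passed it downwards, where 10.8% of 12325 measured genes were higher and 10.2% lower. The median of the log2 differences was 2.02 over the 7 and -0.11 over all. All 4 rested on an ES cell signal below the detection level. With that level at the 65th percentile, a signal of 244.5, only Bank1 was counted. Scaling to the 75th percentile moved the median of all genes to -0.42 in T cells and -0.37 in B cells against ES cells. It also lowered the upward share among all genes past 4-fold, from 51.5% to 38.6% and from 48.8% to 37.4%. The 7 genes stayed at least 4-fold brighter on the B cell array than on the ES cell array under it.

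**Figure D2:**
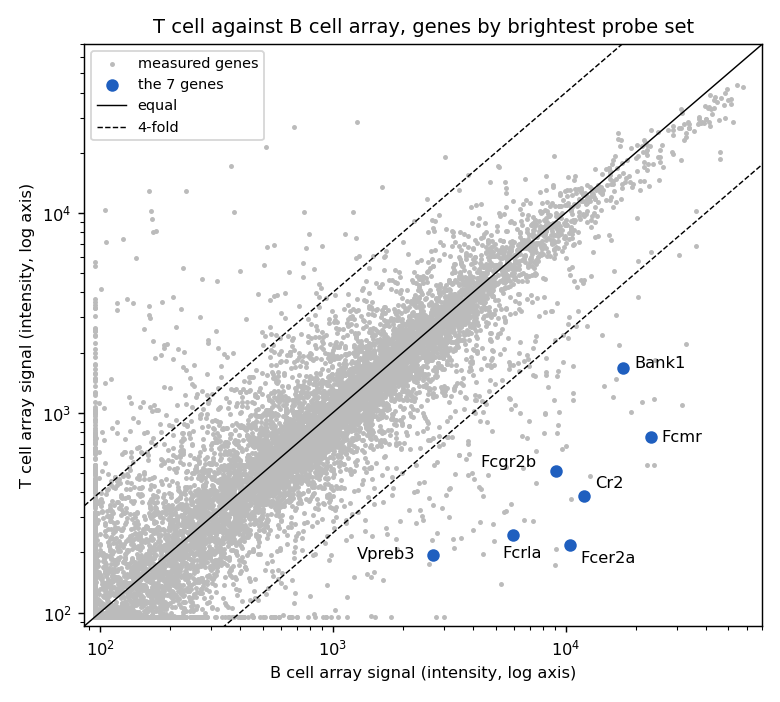
Signal on the T cell array (vertical, intensity, log axis) against the B cell array (horizontal, intensity, log axis) for measured genes (grey) and the 7 genes (blue, named), with values under the level drawn at 95.0, the solid line at equal signals and dashed lines at 4-fold. The 7 genes lie below the lower dashed line, from 10.5-fold for Bank1 to 47.6-fold for Fcer2a.

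The genes can be read by how much of the B cell signal was left on the T cell array. The T cell signal was 2.10% of the B cell signal for Fcer2a, 3.19% for Cr2, 3.26% for Fcmr, 4.11% for Fcrla, 5.65% for Fcgr2b, 7.19% for Vpreb3 and 9.53% for Bank1. The 7 analysed B cell markers, which were not among these genes, had a median of 4.49% and ranged from 2.61% for Ebf1 to Pax5, whose T cell signal was under the level and whose percentage was at most 16.3%. Cd79b was at 3.46%, Blk at 4.38%, Cd79a at 4.49%, Cd22 at 5.28% and Ms4a1 at 6.69%. Cr2, Fcmr, Fcrla and Fcgr2b lay within the 2.61% to 6.69% of the markers above the level on both arrays. Fcer2a lay below that range, and Vpreb3 and Bank1 lay above it. The part of B cells in the T cell sample was not tested. In the other direction, the 6 T cell markers above the level on both arrays had 1.01% to 2.12% of their T cell signal on the B cell array, and the other 3 were under the level there, at no more than 2.85% to 11.4%.

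The spread between probe sets was the only error that could be estimated, and it covers probe effects rather than animals or cultures. Over 122 genes that were at least 4-fold different between T cells and B cells and had their 2 brightest probe sets above the level on both arrays, these differed by a median of 0.47 on the log2 scale. The corresponding gap was 0.41 for Fcrla and 0.51 for Fcgr2b. From the greatest difference to the smallest, the order of the 7 genes was Fcer2a at -5.57, Cr2 at -4.97, Fcmr at -4.94, Fcrla at -4.60, Fcgr2b at -4.15, Vpreb3 at -3.80 and Bank1 at -3.39. The gaps between neighbours in that order ran from 0.03 for Cr2 and Fcmr to 0.61 for Fcer2a and Cr2, and only that of Fcer2a and Cr2 was larger than the median gap between probe sets of a gene. The 90th percentile of the probe set gap over the 122 genes was 1.51, larger than every gap in the order.

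The other Fc receptor genes did not share 1 pattern. Of 19 listed Fc receptor genes, 16 had a probe set of their own and 12 were measured in T cells against B cells. Of these, 5 were lower in T cells by at least 4-fold and 0 higher, with a median of -0.83 that moved between -1.95 and -0.06 under the alternative settings. The 5 were Fcer2a, Fcmr, Fcrla, Fcgr2b and Fcrl1, another Fc receptor-like gene of B cells, which gave 5.1 (ES cells), 9661 (B cells) and 660.1 (T cells) and was 14.6-fold lower in T cells. The 8 measured genes other than Fcer2a, Fcmr, Fcrla and Fcgr2b had a median of 0.74.

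The activating IgG receptors ran the other way from Fcgr2b. Fcgr3 gave 158.1 (ES cells), 836.3 (B cells) and 2181 (T cells), and Fcgr4 gave 127.8, 557.2 and 1200 in the same order. Fcgr1, the high-affinity receptor, gave 14.8, 161.7 and 353.3. Fcer1g, the signalling chain these receptors share, gave 84.1, 2305 and 4857. The log2 differences between T cells and B cells were 1.38 for Fcgr3, 1.13 for Fcgr1, 1.11 for Fcgr4 and 1.08 for Fcer1g, all under the 4-fold threshold, and a second probe set of Fcgr1 gave 0.02.

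The macrophage markers moved in the same direction as these receptors, as did most measured markers of several other cell types. A positive difference was seen in 8 of 8 measured dendritic cell markers, with a median of 1.48. It was seen in 6 of 7 neutrophil markers (median 0.31) and 7 of 10 natural killer and cytotoxic markers (0.92). The same held for 4 of 5 follicular dendritic cell, 2 of 3 mast cell and basophil and 2 of 2 erythroid markers. A positive difference was seen in only 0 of 7 platelet, 1 of 6 plasma cell, 1 of 3 fibroblast and 0 of 2 ES cell markers. Which cells gave the receptor signals was not tested. Of 15 macrophage markers, 14 were measured in T cells against B cells, 0 were at least 4-fold different and 13 had a positive difference, with a median of 1.27. Their summed signal was 4459 (ES cells), 28591 (B cells) and 68729 (T cells), and none was at 0. Csf1r gave 208.9, 8930 and 19275. For the 13 markers above the level on both lymphocyte arrays, the T cell signal was 204.4% to 332.0% of the B cell signal, and for Fcgr3, Fcgr4, Fcgr1 and Fcer1g it was 210.7% to 260.8%. Fcgr1 is itself among the 13 markers. Fcgr2b, which macrophages also express, was at 5.65%, so its difference between the arrays had the opposite sign to that of the macrophage markers.

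**Figure D3:**
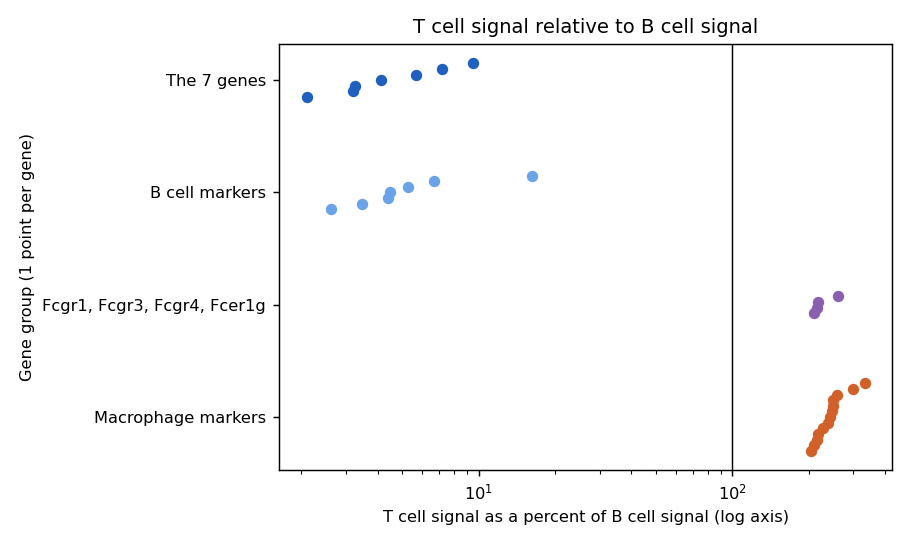
T cell signal as a percent of B cell signal (log axis), 1 point per gene, for the 7 genes, the 7 B cell markers, the activating IgG receptor genes with Fcer1g, and the 13 macrophage markers above the level on both arrays, with a line at 100%. The 7 genes lie at 2.10% to 9.53% and the B cell markers at 2.61% to 16.3%, the last an upper bound for Pax5, whereas the activating receptor genes lie at 210.7% to 260.8% and the macrophage markers at 204.4% to 332.0%.

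Of the remaining Fc receptor genes, the neonatal Fc receptor gene Fcgrt gave 255.7 (ES cells), 1230 (B cells) and 1177 (T cells), which is even between the lymphocytes. Trim21, a cytosolic antibody receptor gene, gave 216.2, 1655 and 2201, or 0.41 on the log2 scale between T cells and B cells. Pigr, for the receptor that carries polymeric IgA and IgM across epithelia, gave 25.4, 286.7 and 4.2, and was lower in T cells by at least 3.02-fold, a bound that passed 4-fold with no floor and with the floor at the 35th percentile, which made the count 6. Fcer1a and Ms4a2, chains of the high-affinity IgE receptor of mast cells and basophils, were below the level on all 3 arrays, as was Fcamr, a receptor for IgA and IgM. Of Fcer1a, Ms4a2 and Fcer2a, only Fcer2a was above the level on the lymphocyte arrays. Fcer1g, whose chain is also part of the high-affinity IgE receptor, was above it as well, at 2305 in B cells and 4857 in T cells. Fcrls was above the level in ES cells only, at 141.0.

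Among 15 listed complement receptors and membrane regulators, 13 had a probe set of their own and 11 were measured in T cells against B cells. Of these, 2 were lower in T cells by at least 4-fold and 0 higher, with a median of -0.33 that moved between -0.82 and -0.09 under the alternative settings. Besides Cr2 the other was Cd55, a regulator that speeds the decay of complement convertases, which gave 72.3 (ES cells), 8126 (B cells) and 999.2 (T cells) and was 8.13-fold lower in T cells. The count lower in T cells was 3 with scaling to the 75th percentile. Cr1l, which encodes the rodent regulator Crry, gave 1204, 3774 and 3036, a difference of -0.31 between T cells and B cells. Over the probe sets of Cr1l that difference ran from -1.18 to -0.02. Cd46 was close to the detection level on all arrays, at 99.1, 110.9 and 133.4, and Cd59a gave 241.2, 292.7 and 113.1.

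The other C3 fragment receptors are the integrins CR3 and CR4, which pair the chains of Itgam or Itgax with that of Itgb2. Itgb2 gave 47.6 (ES cells), 5153 (B cells) and 9933 (T cells), and Itgax gave 13.0, 303.2 and 903.6. Both were brighter on the T cell array than on the B cell array, by 0.95 and 1.58 on the log2 scale. Itgam reached the level in B cells only, at 101.0. C3ar1 and Vsig4 were each at 119.1 in B cells and below the level in T cells, and C5ar1 was below it on all arrays. Cd93 gave 54.1, 524.0 and 132.8, a difference of -1.98 that lay just short of 4-fold.

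**Figure D4:**
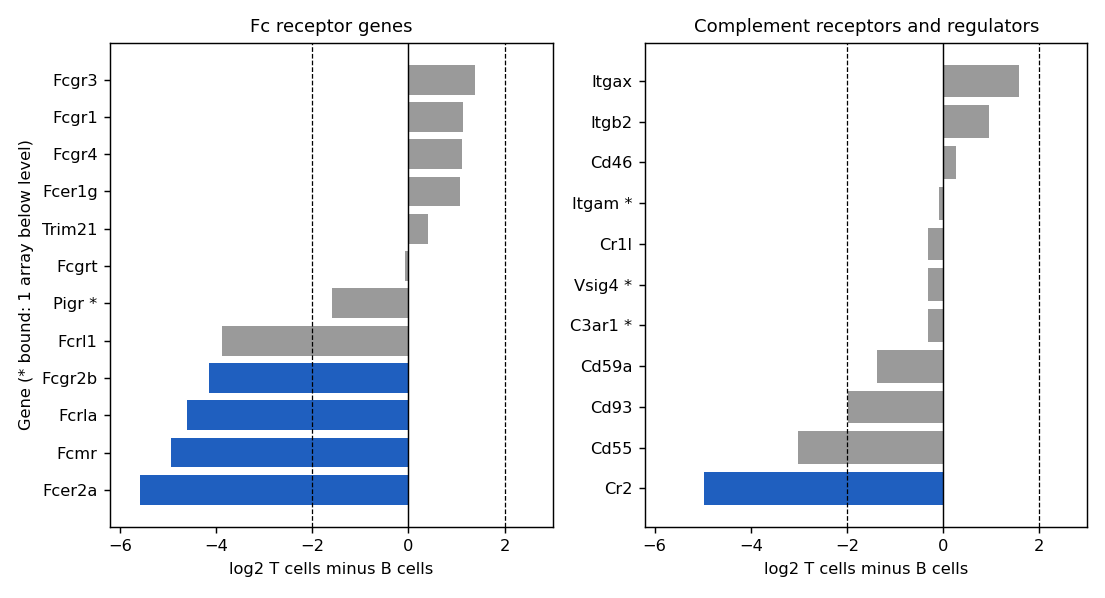
Log2 difference of T cells minus B cells for the measured Fc receptor genes (left) and complement receptors and regulators (right), with the genes Fcer2a, Fcmr, Fcrla, Fcgr2b and Cr2 in blue, others in grey, dashed lines at 4-fold and a star where 1 of the 2 arrays was below the detection level. Beside the blue bars, Fcrl1 at -3.87 and Cd55 at -3.02 pass the lower line, and no gene passes the upper line.

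Complement components were also looked at, although C3, whose fragments Cr2 binds, is not analysed here. Of 20 listed, 15 had a probe set of their own and 8 were measured in T cells against B cells, of which 1, C6, was higher in T cells by at least 4-fold and 0 lower, with a median of 1.02. C6 gave 151.1 in B cells and 628.3 in T cells, a 4.16-fold difference, and was not counted with no floor or with the floor at the 65th percentile. The median was 0.66 with the floor at the 35th percentile. C1qa, C1qb and C1qc, the chains of C1q, were higher in T cells by 1.19, 1.25 and 1.07 on the log2 scale, and C1qa gave 127.2 (ES cells), 3529 (B cells) and 8028 (T cells). All of these C1q genes are also among the macrophage markers above, so the lists overlap. Which cells gave the C1q signals was not tested.

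Coreceptor and inhibitory receptor genes of B cells were next compared, since Cr2 and Fcgr2b act on the B cell receptor. Of 12 listed, 11 were measured, and 4 were lower in T cells by at least 4-fold and 1 was higher, with a median of -1.09. Cd81, the tetraspanin of the Cr2 coreceptor, was bright on all arrays, at 8599 (ES cells), 8058 (B cells) and 3787 (T cells). Siglecg gave 97.7, 7210 and 285.5 and was 25.3-fold lower in T cells. Cd22 was -4.24 and Cd72 -3.22 on the log2 scale between T cells and B cells, and Cd5, a T cell gene that marks a subset of B cells, was 5.94.

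In the signalling chain that Bank1 and Fcgr2b act on, 19 of 21 listed genes were measured. Of these, 16 were at least 4-fold brighter on the B cell array than on the ES cell array and 0 lower, with a median of 3.72, or 2.39 by the probe set of smallest difference. Over all measured genes 9.85% were higher and 10.3% lower in that comparison. Between T cells and B cells, 8 of the 19 were at least 4-fold lower and 1 higher in T cells, with a median of -0.99. Cd79b at -4.85, Blk at -4.51, Cd79a at -4.48 and Blnk at -3.74 had the greatest differences, and the kinase gene Fyn was the exception at 2.68. Inpp5d, whose product Fcgr2b recruits, gave 372.8 (ES cells), 3230 (B cells) and 1724 (T cells), or -0.91 between T cells and B cells.

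Vpreb3 was set beside the other surrogate light chain and early B cell genes on a list. Of 11 listed genes, 10 had a probe set of their own and 5 were measured in T cells against B cells, of which 0 were lower in T cells by at least 4-fold and 1 higher, with a median of 1.19 that fell to 0.44 with the floor at the 35th percentile. Under the alternatives the count was 0 to 1 lower and 1 to 2 higher. The 1 was Il7r at 5.78, and Dntt followed at 1.98 as a bound, with Cd93 at -1.98 and Sox4 at 1.19. Vpreb1 gave 111.1 (ES cells), 31.1 (B cells) and 62.4 (T cells), and Rag1 and Rag2 were at 19.2 and 17.8 in B cells, below the level. Igll1, the other surrogate light chain gene, gave 112.3, 213.6 and 167.2. The Vpreb3 signal in B cells was 28.4 times the detection level.

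Of 17 listed genes of mature B cell subsets, 14 were measured in T cells against B cells, 5 were lower in T cells by at least 4-fold and 1 higher, with a median of -0.20 that lay between -0.46 and 0.05 under the alternatives. Fcer2a and Cr2, which mark follicular and marginal zone B cells by their relative amounts, are 2 of the 5. Cd24a at -3.73 was another, and Cd5 was the gene that was higher. Without Fcer2a and Cr2 the median was 0.10. A single B220 population does not separate these subsets. Follicular dendritic cells also carry Cr2 and Fcer2a, and 6 markers of those cells had a summed signal of 1272 in B cells and 1253.5 in T cells. They ranged from 82.7 to 480.3 in B cells, and 4 were above the detection level in B cells and 5 in T cells. None of the 6 was at least 4-fold different between T cells and B cells.

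The genes most like each of the 7 were sought over 3 arrays, as the smallest Euclidean distance between log2 signals centred on their mean, among 12142 genes. These were measured genes other than the 7, so 1 of the 7 could not be named as nearest to another. Immunoglobulin and T cell receptor segments and genes with clone-type or provisional names were also left out. Values under the level stood at it, so distances that involve the ES cell array are approximate. So few arrays leave little room for patterns to differ. Nearest to Cr2 was Tnfrsf13c, the BAFF receptor gene, at a distance of 0.14, followed by Siglecg at 0.55 and Blk at 0.61. Nearest to Fcer2a were Srpk3 at 0.10, Serpinb1a at 0.11 and Ebf1 at 0.55, although the probe sets of Ebf1 ranged from -5.26 to -0.41 between T cells and B cells. Nearest to Fcmr were Cd79b at 0.41, Ly6d at 0.50 and Cd22 at 0.50. The nearest gene to Fcmr was thus farther from it than those of Cr2 and Fcer2a were from them.

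Fcrla was nearest to Blk and Siglecg, at 0.17 each, and to Rasgrp3 at 0.20. Fcgr2b was nearest to Fcrl1 at 0.27, Spib at 0.30 and Lmo2 at 0.44. Bank1 was nearest to Pou2af1, a coactivator gene of Oct factors in B cells, at 0.14, to Mzb1 at 0.24 and to H2-Ob at 0.32. Vpreb3 was nearest to Kctd14 and Snn, at 0.11 each, and to Lyl1 at 0.18. Siglecg and Blk appeared for both Cr2 and Fcrla.

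In the RefSeq gene table, 4 of the 7 genes were on chromosome 1, namely Cr2, Fcmr, Fcrla and Fcgr2b, and Fcrla and Fcgr2b had 1 protein-coding gene between them. The 3 protein-coding genes on each side, or on 1 side for Cr2, the last such gene of chromosome 1 in the table, taken by position after the values of the 7 were seen, made 34 other genes, of which 26 had a probe set of their own and 16 were measured in T cells against B cells. Of the 16, 1 was lower in T cells by at least 4-fold and 0 higher, with a median of -0.06, where 1.85% of all measured genes were lower and 2.49% higher. The 1 was Chchd10, near Vpreb3, which gave 22248 (ES cells), 7360 (B cells) and 1533 (T cells).

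Along the Fc receptor cluster, Fcrla and Fcgr2b were followed by Fcgr4 and Fcgr3, which had the opposite sign between T cells and B cells, as given above. On the other side, Dusp12 was even, at 638.8 in B cells and 631.4 in T cells. Beside Fcmr, Pigr and Fcamr are further genes of immunoglobulin receptors, of which Pigr gave the bound above and Fcamr was below the level on every array. Beside Cr2, Cr1l and Cd46 differed by 1.24-fold and 1.20-fold between T cells and B cells by their gene values, with the spread over the probe sets of Cr1l given above. Beside Bank1, Ppp3ca, for a catalytic chain of calcineurin, was 3.52-fold lower in T cells, at 3650 in B cells and 1038 in T cells.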

How the data were processed

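Messenger RNA was measured on 1 microarray each for ES cells, B cells and CD4 T cells, from total RNA extracted with Trizol and labelled with biotin, per the labels' protocols. Linear signal intensity values of 45037 probe sets were deposited, made with Affymetrix Expression Console per the submitters' processing notes. How probes were summarized, scaled and corrected for background was not stated in the sources read. Trimmed means of the 3 columns, leaving out 2% at each end, were 497.3 to 497.8, as arrays scaled to a common mean have, so a change in total mRNA per cell cannot be seen. The number of arrays limits the precision. In the main values each difference was taken between arrays for the same probe set. Probe sets of a gene were compared by signal to choose 1 and by difference to estimate their spread. Summed signals of markers add probe sets of unlike brightness, so the brightest weigh most.

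Probe sets were named through GEO's platform annotation, and each Entrez ID was looked up in RefSeq's table of GRCm38.p6, where 34741 of 34945 probe sets with 1 symbol matched and 0 symbols changed. Another 932 had several symbols and 9160 no listed gene, and neither kind was used. No test was run, since each population had 1 array. The genes named were all 7 members, every measured gene of the Fc and complement receptor lists, up to 4 genes of each other list with the greatest difference between T cells and B cells, any gene at 4-fold against its list, the 3 nearest genes to each member, and markers. Fcgrt, Inpp5d, Cd81, Vpreb1, Igll1, Rag1 and Rag2 and the neighbours by position were described in addition, after values were seen. The members and lists were chosen with earlier results of these data known. The alternatives tried were scaling to the 75th percentile, quantile normalization, adding 16 in place of a floor, a floor at the 65th or 35th percentile, the mean of all probe sets of a gene, its probe set with the smallest difference, and leaving out _s_at and _x_at probe sets. The counting was tested on simulated data with known changes. Python 3.11.15, pandas 2.3.3 and numpy 2.4.6 were used, and sequences came from RefSeq.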

Additional observations from a re-analysis of the deposited data

How the results depend on the processing

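Under the 8 alternatives, 7 of 7 genes stayed past 4-fold in B cells against ES cells and in T cells against B cells, except that 6 of 7 did so in both comparisons where each gene was taken by its probe set of smallest difference, with Fcrla then at bounds of -1.85 and 1.85 on the log2 scale. Between ES cells and T cells the number of the 7 genes past 4-fold upwards was 4, and it was 1 with the floor at the 65th percentile, which by construction raises the ES cell values the folds are taken against. It lay at 3 to 5 under the others. Of 168 recomputed differences of the 7 genes, 156 stayed on the same side of 4-fold, 10 dropped below 4-fold, 2 rose past it and 0 reversed. Among the 156, those of Fcer2a and Vpreb3 between T cells and ES cells fell to 0 with the floor at the 65th percentile. There both arrays were under the floor, so no direction was left. Of 504 recomputed medians and counts of the gene lists, 460 stayed on the same side of 4-fold or within 1.5 times, 28 counts moved further, 14 medians dropped below 4-fold and 2 rose past it. The report gives those between T cells and B cells beside the lists. The complement component count went from 1 to 0 with no floor and with the floor at the 65th percentile, and the Fc receptor count from 5 to 6 with no floor and with the floor at the 35th percentile. The count of complement receptors and regulators lower in T cells went from 2 to 3 with scaling to the 75th percentile. No paired analysis was possible because each population has 1 array and the result comes from no test. For the same reason no array could be left out.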
